A study of Mus musculus with 35 samples.

Results

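The effect of a PGC-1α transgene on gene expression in young adult muscle was examined in 12 of the 35 libraries of the series, 6 from transgenic mice (mTG) and 6 from wild-type mice (WT), all of them 3 months old. They were all the libraries of both genotypes at that age. Each was made from total RNA of gastrocnemius, a calf muscle built mostly of fast fibres, of a male mouse, with a TruSeq RNA v2 kit. The labels name the genotypes as WT and PGC-1α transgenic and give no transgene promoter, line or strain, and no other allele or treatment. The series also holds knockout mice and mice of 24 months, and it calls the 5 or 6 libraries of a group biological replicates without tying them to separate animals, so p-values measure the spread between these libraries. The table names its columns otherwise than the labels do, so genotype and age were inferred: the WT columns are WT_1 to WT_6, and MCK was taken as mTG, which gives MCK_3874, MCK_3875, MCK_3876, MCK_3885, MCK_3887 and MCK_3890 at 3 months.

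The gene Ppargc1a encodes PGC-1α, a coactivator of transcription that binds no DNA itself and is recruited to promoters by transcription factors. Its partners include the estrogen-related receptors (ERR), the nuclear respiratory factors NRF1 and GABP, the PPAR receptors and MEF2, through which it raises genes of mitochondrial respiration and fatty acid oxidation. In skeletal muscle it is induced by exercise and is known for its links to oxidative, fatigue-resistant fibres and to capillary growth.

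The partners of PGC-1α read short DNA motifs, so the promoter stretches around an ERR motif are shown for genes whose values are given further on. The motif searched was AAGGTCA, on both strands, in the 250 bases before each gene's start in RefSeq (GRCm38.p6). It is in capitals below and reads TGACCTT where it lies on the strand opposite to the gene. Adig is among the 12 largest rises named below, Pdss1 is a gene of coenzyme Q synthesis and Perm1 is a muscle coregulator of the ERR family. Atp5g3, Acadm and Isca1 are genes of ATP synthase, fatty acid oxidation and iron-sulfur cluster assembly.
Adig, chr2:158502430-158502490, plus strand: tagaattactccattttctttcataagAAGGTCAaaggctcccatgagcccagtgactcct
Pdss1, chr2:22895272-22895307, plus strand: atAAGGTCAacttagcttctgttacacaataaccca
Perm1, chr4:156215698-156215758, plus strand: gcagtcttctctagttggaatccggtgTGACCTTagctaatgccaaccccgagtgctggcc
Atp5g3, chr2:73911345-73911405, minus strand: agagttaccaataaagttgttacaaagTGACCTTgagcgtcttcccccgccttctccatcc
Acadm, chr3:153944859-153944893, minus strand: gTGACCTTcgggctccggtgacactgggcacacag
Isca1, chr13:59769891-59769951, minus strand: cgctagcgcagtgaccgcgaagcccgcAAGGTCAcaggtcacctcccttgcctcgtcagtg
These letters were not limited to genes that rose. The motif was in 3.49% of the 8589 promoters of tested protein-coding genes, in 3.64% of the 2062 of genes that rose and in 3.61% of the 1883 of genes that fell. Above 2-fold the shares were 5.88% of 289 promoters of genes that rose and 7.37% of 95 of genes that fell. Of the 65 nuclear subunits of the respiratory complexes and ATP synthase with a promoter in RefSeq, 5 (7.69%) held it, against 3 of 71 (4.23%) for the mitochondrial ribosome, 1 of 20 (5.0%) for fatty acid oxidation, 0 of 21 for the citric acid cycle and pyruvate dehydrogenase, and 3 of 11 (27.3%) for mitochondrial chaperones and proteases. A match describes a sequence and does not show that a factor binds it.

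Ppargc1a stood far higher in every mTG library than in any WT library, which checks the genotype labels. This gene (ENSMUSG00000029167, chromosome 5, 51454250 to 51567726, minus strand, GRCm38) had 4.83, 6.99 and 15.2 scaled TPM as the lowest, median and highest WT value. The mTG values were 96.1, 109 and 112. The groups did not overlap. The mean was 13.2-fold higher in mTG, and log2(scaled TPM + 1) was 3.08 ± 0.60 in WT and 6.75 ± 0.085 in mTG (SD, n = 6 each; exact 2-sided permutation test, p = 0.00216, the smallest 6 against 6 can give, adjusted p = 0.00464 over the 15 single values tested). On TPM as deposited the log2 difference was 2.91. TPM summed to genes cannot tell transcripts of the transgene from those of the mouse's own gene.

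**Figure D1:**
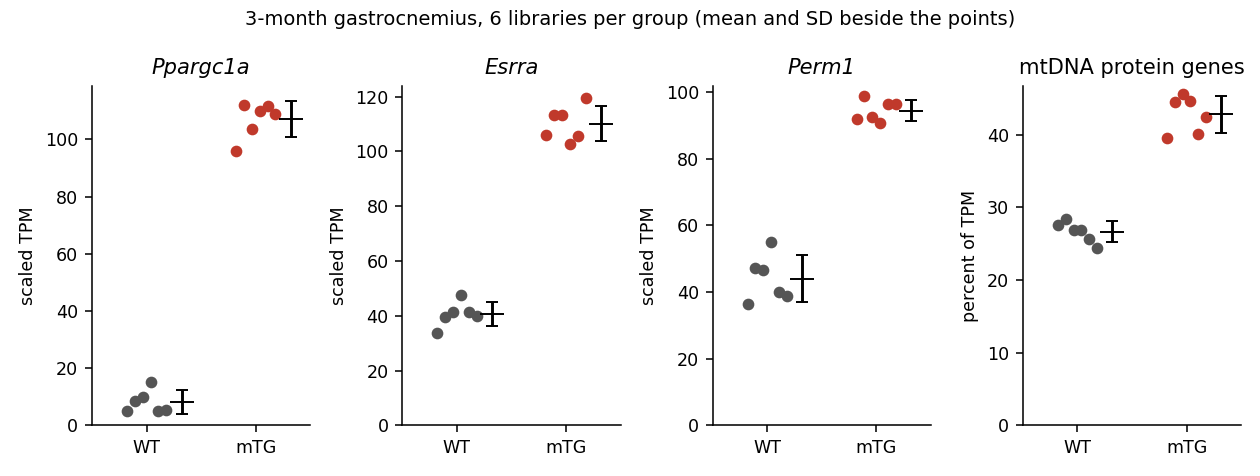
Levels in each of the 12 libraries, with the group mean and SD beside the points (n = 6 each). The vertical axes are scaled TPM for Ppargc1a, Esrra and Perm1, and percent of deposited TPM for the 13 protein genes of mitochondrial DNA; in all 4 panels every mTG library lies above every WT library.

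TPM are parts of a fixed total, and that total was shared out differently in the 2 groups. The 13 protein genes of mitochondrial DNA took 24.4% to 28.4% of all TPM in WT and 39.6% to 45.7% in mTG, and nuclear protein-coding genes took 54.6% to 58.3% and 32.3% to 36.4%. Values were therefore set on one scale by dividing each column by the median of its ratios to the gene-wise geometric mean (factors of 1.18 to 1.29 in WT and 0.670 to 0.754 in mTG), and are called scaled TPM. A difference below is the mTG minus the WT mean of log2(scaled TPM + 1), from limma with Benjamini-Hochberg adjustment over 12399 genes, and "rose" or "fell" means an adjusted p under 0.05 in that fit. By that rule 2771 genes (22.3%) rose and 2657 (21.4%) fell, together 43.8%, with a median difference over all genes of -0.01. On TPM as deposited 467 genes (3.77%) were higher and 9573 (77.2%) lower, together 81.0%, with a median of -0.58. All 2657 genes that fell (21.4%) were lower on both scales, whereas 3.76% of all genes tested were higher on both. Counts on deposited TPM are therefore given beside most groups of genes. The shares of all genes that rose (22.3%) and fell (21.4%) are the base for every such count below. Groups that did not overlap were also common. On scaled TPM this held for 2005 genes (16.2%) that were higher in mTG and 1821 (14.7%) that were lower.

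The libraries of each group resembled one another more than those of the other group, with Pearson r of log2(scaled TPM + 1) across genes of 0.979 to 0.987 within WT, 0.977 to 0.988 within mTG and 0.948 to 0.962 between them. Nuclear rRNA genes took 0.155% to 0.479% of TPM in WT and 0.0911% to 0.191% in mTG. The log2 of that share was lower in mTG by 1.04 on average, with overlap (exact permutation test, adjusted p = 0.0108). With that share as a covariate 2487 genes were higher and 2293 lower. Muscle fibre markers were abundant in every library, at 84690 to 94150 summed scaled TPM in WT and 71320 to 87310 in mTG. In bulk tissue, fewer cells of a type and less RNA per cell cannot be told apart.

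Of the 35 genes of the PGC-1 family and its partners, 9 rose and 7 fell, a share near that of all genes. On deposited TPM 5 were higher and 25 lower, and without WT_3 or without MCK_3887 the count that fell was 4. The genes that rose included Ppargc1a, the gene of the transgene itself, and 2 of the ERR family. Esrra, which encodes ERRα, was at 33.6 to 47.4 scaled TPM in WT (median 40.5) and 103 to 119.6 in mTG (median 109.6). Every mTG library exceeded every WT library by a wide margin, and the fold was 2.72 (difference 1.43, SE 0.11, adjusted p = 4.43e-12; as deposited 0.63). Esrrb, its paralogue, rose from a much lower level, from 0.7 to 1.61 scaled TPM in WT (median 1.19) to 5.39 to 7.43 in mTG (median 6.32; difference 1.77, SE 0.10). The third receptor, Esrrg, did not pass the test (difference -0.05, adjusted p = 0.834), and neither did Ppargc1b, which encodes the related coactivator PGC-1β (-0.04, adjusted p = 0.827); on deposited TPM both were lower (-0.70 and -0.41).

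Perm1, a muscle protein induced by PGC-1α and ERR, was at 36.3 to 55.2 scaled TPM in WT (median 43.3) and 90.6 to 98.8 in mTG (median 94.6), with no overlap (2.15-fold higher). Sirt3, the main deacetylase of the mitochondrial matrix, rose by 1.48 (SE 0.12), from a median of 9.12 to 27.7 scaled TPM. Both were also higher on deposited TPM. Ppara, the fatty acid receptor PPARα, rose by 0.81 with overlapping groups, a call that was not made on deposited TPM (0.17) or with the rRNA share as a covariate. The nuclear respiratory factors themselves did not pass the test, with differences of 0.02 for Nrf1 (adjusted p = 0.918) and 0.17 for Gabpa (adjusted p = 0.327); as deposited they were -0.60 and -0.51. Rxra, the shared partner of PPAR receptors, fell by 0.44 and Mef2a by 0.36, each without overlap. Yy1 fell by 0.42 and the immediate early gene Nr4a1 by 0.74, and neither call was made without MCK_3874 and MCK_3885.

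The genes of oxidative phosphorylation rose almost without exception. Of the nuclear subunits, 35 of 36 of complex I rose (16 on deposited TPM), as did 4 of 4 of complex II (3), 10 of 10 of complex III with cytochrome c (6), 14 of 14 of complex IV (8) and 14 of 15 of ATP synthase (9). None fell on scaled TPM, and on deposited TPM 1 subunit each was lower in complexes I, II and III and in ATP synthase. The median differences were 0.97, 1.15, 1.14, 1.17 and 1.13 in that order, and as deposited 0.17, 0.35, 0.34, 0.37 and 0.33, against -0.01 and -0.58 over all genes. The summed level of complex I subunits was 8037 to 9603 scaled TPM in WT libraries and 17210 to 18730 in mTG libraries, so the lowest mTG library had over 1.5 times the highest WT one.

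In complex I, which takes electrons from NADH, Ndufs1 encodes the largest subunit and was at 113 to 139 scaled TPM in WT (median 134) and 241 to 269 in mTG (median 260.4). Its groups were apart, with a fold of 1.96 (difference 0.97, SE 0.08, adjusted p = 1.94e-12). Ndufa8 rose by 1.39 and Ndufs8, a subunit with iron-sulfur clusters, by 1.48. The exception was Ndufa2, at 221 to 266 scaled TPM in WT and 311 to 344 in mTG, which were apart but did not pass (difference 0.43, SE 0.19, adjusted p = 0.0728; as deposited -0.38). It passed in a fit of the 12 libraries alone.

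Complex II, or succinate dehydrogenase, is coded by nuclear genes only. Its iron-sulfur subunit Sdhb was at 222 to 296 scaled TPM in WT (median 274) and 753 to 798 in mTG (median 792), 2.91-fold higher with a difference of 1.54. Sdha rose by 1.08 and Sdhd by 1.22, and these 3 genes were higher on both scales. Sdhc rose by 0.45 on scaled TPM and was lower, at -0.35, on deposited TPM, so its direction depended on the scale.

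Complex III passes electrons to cytochrome c. Its core subunit Uqcrc2 was at 204 to 279 scaled TPM in WT (median 259.6) and 574 to 617 in mTG (median 589.8), 2.36-fold higher with a difference of 1.24 and an SE of 0.07. Uqcrc1 rose by 1.43 and Cyc1, which encodes cytochrome c1, by 1.24. In complex IV, which reduces oxygen, Cox4i1 was at 667 to 849 scaled TPM in WT (median 756) and 1916 to 2315 in mTG (median 2157), 2.85-fold higher. Cox5a rose by 1.22 and Cox6c by 1.33. Among ATP synthase subunits, Atp5g3, which encodes a ring subunit and whose promoter stretch is printed above, was at 608 to 832 scaled TPM in WT (median 769) and 2193 to 2408 in mTG (median 2249). That was 3.03-fold higher, against 2.00-fold for Atp5a1, which encodes the alpha subunit, and 2.20-fold for the central stalk gene Atp5c1. Each of these 9 genes was higher on both scales and its groups did not overlap, as for 16.2% of all genes in that direction.

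All 13 protein genes of mitochondrial DNA rose on scaled TPM, and 10 were also higher on deposited TPM, where none was called lower. Their median difference was 1.40 (0.60 as deposited). mt-Co3, a core subunit of complex IV, was at 39070 to 44970 scaled TPM in WT (median 42690) and 107500 to 130300 in mTG (median 113600), 2.74-fold higher with a difference of 1.46. mt-Cytb, the mitochondrial subunit of complex III, rose by 1.63 and mt-Nd1 of complex I by 1.29. These 3 calls were not made after quantile normalization, which forces the top ranks of all libraries to the same values (differences of 0.05, 0.28 and 0.04). mt-Atp6 rose by 2.09, but by 1.57 when its near-identical nuclear copy Gm10925 was added to it. The share of deposited TPM in the 13 genes, which needs no scaling, was 26.6% ± 1.45 in WT and 42.8% ± 2.56 in mTG (SD, n = 6 each), higher by 16.2 points with no overlap (exact permutation test, p = 0.00216, adjusted p = 0.00464). There are 11 near-identical nuclear copies in the table, between which reads could be split, and they took 11.5% to 16.0% of TPM in WT and 19.5% to 25.5% in mTG. With the copies added the share was 41.0% ± 1.70 in WT and 64.1% ± 1.70 in mTG.

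Most genes that build the respiratory chain also rose. Of 39 assembly factors 32 rose and 1 fell, with a median of 0.61, while on deposited TPM 6 were higher and 16 lower (median -0.16). Sco2, a copper chaperone for complex IV, was at 4.43 to 7.26 scaled TPM in WT (median 5.55) and 28.6 to 36.5 in mTG (median 32.1). Its 5.70-fold rise (difference 2.33, SE 0.11) was among the 12 largest by the naming rule given below. Cox10, an enzyme of the haem A pathway for complex IV, rose by 1.12. Cox16, another complex IV assembly factor, was the 1 that fell, from 52.6 to 58.9 scaled TPM in WT to 32.8 to 41.3 in mTG (difference -0.58).

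Of 17 genes of coenzyme Q and cardiolipin synthesis 12 rose and 1 fell (4 higher and 8 lower as deposited). Pdss1, which makes the isoprenoid tail of coenzyme Q, was at 3.84 to 5.65 scaled TPM in WT (median 4.50) and 17.8 to 21.1 in mTG (median 19.7), a 4.21-fold rise. Coq5, a methyltransferase of the same pathway, rose by 1.27. Of 25 genes of iron-sulfur cluster and haem synthesis 22 rose and none fell, with a median of 0.47, whereas 4 were higher and 14 lower on deposited TPM. The scaffold gene Iscu rose by 1.29 and was higher on both scales. Isca1, a carrier of the clusters, was at 128 to 140.1 scaled TPM in WT (median 137) and 232 to 273 in mTG (median 262), and its rise of 0.92 was not called on deposited TPM (0.12).

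Most genes of the machinery that translates mitochondrial mRNA rose, with a smaller median than the genes of the subunits, a difference that was not tested. Of 83 genes of mitochondrial ribosome proteins 69 rose and none fell, with a median of 0.59. On deposited TPM 13 of these genes were higher and 38 lower, with a median of -0.18. Their summed level was 3175 to 3564 scaled TPM in WT and 5150 to 5825 in mTG. Mrpl37 was at 33.1 to 41.1 scaled TPM in WT (median 38.2) and 78.9 to 85.2 in mTG (median 83.3), 2.19-fold higher, and Dap3, a protein of the small subunit, rose by 1.23. Both genes were higher on both scales. Of 37 translation factors and tRNA synthetases 24 rose and 1 fell (6 higher and 20 lower as deposited). Tufm, the elongation factor that delivers tRNAs, rose by 1.24, its exchange factor Tsfm by 1.17, and Qrsl1, a subunit of the enzyme that makes glutaminyl-tRNA, by 1.37.

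Mss51, which in muscle has been studied as a mitochondrial protein that responds to myostatin, was the member that fell. It was at 11.8 to 30.2 scaled TPM in WT (median 20.4) and 0.825 to 1.51 in mTG (median 0.997). The lowest WT library had over 7 times the highest mTG one, and the difference was -3.38 (SE 0.31, adjusted p = 8.53e-11). Of 25 genes that copy, transcribe or process mitochondrial DNA and RNA 11 rose and 1 fell, and 2 were higher and 18 lower on deposited TPM. Mterf2, a mitochondrial transcription factor, rose by 1.60 and was higher on both scales. Tfam, which packages mitochondrial DNA, was at 21.5 to 24.9 scaled TPM in WT (median 23.5) and 39.1 to 47.4 in mTG (median 41.1); it rose by 0.82 on scaled TPM, and was 0.04 and not called as deposited. Lrpprc, a stabiliser of mitochondrial mRNA, gave 0.81 and 0.03. Mgme1, a nuclease for mitochondrial DNA, fell by 0.29.

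Genes of mitochondrial shape, membranes and import rose in 27 of 35 cases and fell in 2, with a median of 0.61 (6 higher and 17 lower as deposited). Mtfp1, a protein of the inner membrane that promotes fission, was at 20.2 to 30.0 scaled TPM in WT (median 23.9) and 87.1 to 92.7 in mTG (median 88.7), 3.68-fold higher with a difference of 1.85. Chchd3, which shapes cristae, and Phb, a prohibitin, each rose by 1.28. Of 14 mitochondrial chaperones and proteases 13 rose and none fell, but 1 was higher and 8 lower on deposited TPM; the inner membrane protease gene Afg3l2 rose by 0.97 and was the 1 higher on both. Ppif, which encodes cyclophilin D, a regulator of the permeability pore, was on no list and was among the 12 largest rises, at 12.8 to 19.1 scaled TPM in WT (median 16.2) and 74.0 to 86.0 in mTG (median 78.2), 4.83-fold higher.

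Of 25 antioxidant genes 11 (44.0%) rose and 2 (8.0%) fell, against 22.3% and 21.4% of all genes (5 higher and 15 lower as deposited). Sod2, the superoxide dismutase of the matrix, was at 111 to 144 scaled TPM in WT (median 134) and 381 to 449 in mTG (median 407), 3.16-fold higher, and the peroxiredoxin Prdx6 rose by 1.44. Both were higher on both scales.

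Most genes of fuel oxidation rose. Of 24 genes of the citric acid cycle and pyruvate dehydrogenase 21 rose and 1 fell, with a median of 0.96 (13 higher and 4 lower as deposited). Dlst, a subunit of the oxoglutarate dehydrogenase complex, was at 74.4 ± 6.37 scaled TPM in WT and 206 ± 5.08 in mTG (SD, n = 6 each), without overlap, 2.77-fold higher with a difference of 1.46 and an SE of 0.07. Sucla2 rose by 0.97 and Pdhx, a component of pyruvate dehydrogenase, by 0.95. The gene that fell was Pcx, pyruvate carboxylase, which replenishes the cycle, from a median of 17.4 to 9.68 scaled TPM (difference -0.86).

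Of 25 genes of fatty acid beta oxidation and the carnitine shuttle 24 rose and none fell; on deposited TPM 12 were higher and none lower. Slc25a20, the carnitine carrier of the inner membrane, was at 25.1 to 36.1 scaled TPM in WT (median 31.4) and 71.5 to 83.3 in mTG (median 76.8), 2.49-fold higher. The dehydrogenase gene Acadl rose by 1.44 and Etfdh, which passes the electrons on to coenzyme Q, by 1.06. Acadm, whose promoter stretch is printed above, rose by 0.89 and was 0.09 and not called as deposited. The exception was Cpt1a, the liver form of the entry enzyme, at 1.59 to 2.86 scaled TPM in WT and 1.94 to 4.48 in mTG (difference 0.34, adjusted p = 0.159; as deposited -0.23).

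Of 24 genes of fatty acid uptake, storage and lipolysis 15 rose and 2 fell (6 higher and 8 lower as deposited). Pnpla2, the lipase that starts triglyceride breakdown, was at 68.6 to 108 scaled TPM in WT (median 94.3) and 233 to 287 in mTG (median 245), 2.76-fold higher. Cidea, a lipid droplet protein best known from brown fat, rose from 0.292 to 0.835 scaled TPM in WT to 2.10 to 4.11 in mTG. The members that fell coat lipid droplets: Plin2 by 0.72 and Plin3 by 0.97.

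Of 22 genes of branched-chain amino acid breakdown 18 rose and none fell, with a median of 0.53, and 3 were higher and 13 lower as deposited. Hibadh rose by 1.07 and Mcee 2.26-fold, and both were higher on both scales. Oxct1, the enzyme that commits ketone bodies to oxidation, rose by 1.03 (0.23 and not called as deposited), and Slc16a1, a carrier of lactate and ketone bodies, by 0.97. The malate-aspartate shuttle and the kynurenine aminotransferases rose in 8 of 8 tested members, 6 of them on both scales, with a median of 1.37. Got2, which belongs to both, was at 101 to 136 scaled TPM in WT (median 126) and 429 to 493 in mTG (median 446). Its 3.66-fold rise (difference 1.87, SE 0.11) was larger than those of Mdh1 (1.43), Mdh2 (1.52) and the carrier Slc25a11 (1.19); these 4 values were not tested against each other.

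Among glucose and glycogen genes more fell than rose. Of 33 tested 6 rose and 15 fell, with a median of -0.22, and on deposited TPM none was higher and 30 were lower. The subunits of phosphorylase kinase, which switches on glycogen breakdown, were among those that fell. Phkb was at 131 to 153 scaled TPM in WT (median 142) and 31.2 to 39.4 in mTG (median 37.4), 3.84-fold lower in mTG (difference -1.91, SE 0.09, adjusted p = 3.87e-18). Phka1 fell by 1.17 and the catalytic subunit Phkg1 by 0.75. Prkag3, the AMPK subunit of fast glycolytic muscle, was at 42.9 to 77.8 scaled TPM in WT (median 64.8) and 8.29 to 13.3 in mTG (median 10.2), 6.15-fold lower and among the 12 largest falls.

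Ldha, which makes lactate from pyruvate, was at 1188 to 1397 scaled TPM in WT (median 1251) and 554 to 701 in mTG (median 621), lower in every mTG library and 2.00-fold lower on average. Ldhb, the form that prevails in heart, rose by 0.57 with overlapping groups, a direction that turned on deposited TPM (-0.23, not called). The share of Ldhb in the summed TPM of both genes does not depend on scaling, and it was 8.08% to 18.7% in WT and 27.7% to 43.3% in mTG. The groups did not overlap, and the means were 14.9% ± 4.34 and 33.4% ± 5.30 (SD, n = 6 each; exact permutation test, adjusted p = 0.00464).

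The pyruvate dehydrogenase kinases, which close the entry of pyruvate into the cycle, did not move as one. Pdk2 was at 119 to 136 scaled TPM in WT (median 126) and 168 to 221 in mTG (median 205), a rise of 0.65 that became -0.15, not called, on deposited TPM. Pdk1 fell by 0.22, a call lost without MCK_3887. Pdk4, which fasting induces, varied widely, at 66.9 to 302 scaled TPM in WT and 193 to 738 in mTG, and did not pass (difference 0.80, SE 0.43, adjusted p = 0.132).

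Of 14 genes of fatty acid synthesis 5 (35.7%) rose and 3 (21.4%) fell, against 22.3% and 21.4% of all genes (none higher and 10 lower as deposited). Srebf1, the transcription factor that governs the pathway, was at 16.3 to 29.3 scaled TPM in WT (median 20.8) and 2.76 to 5.22 in mTG (median 3.73), 5.67-fold lower and among the 12 largest falls. Me1, which supplies NADPH, fell from a median of 73.5 to 26.7 scaled TPM and the desaturase gene Scd2 from 6.52 to 2.84. Fasn, fatty acid synthase itself, rose by 0.98 on scaled TPM (0.24 and not called as deposited), as did Mlycd, which degrades malonyl-CoA (0.81 and 0.02).

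**Figure D2:**
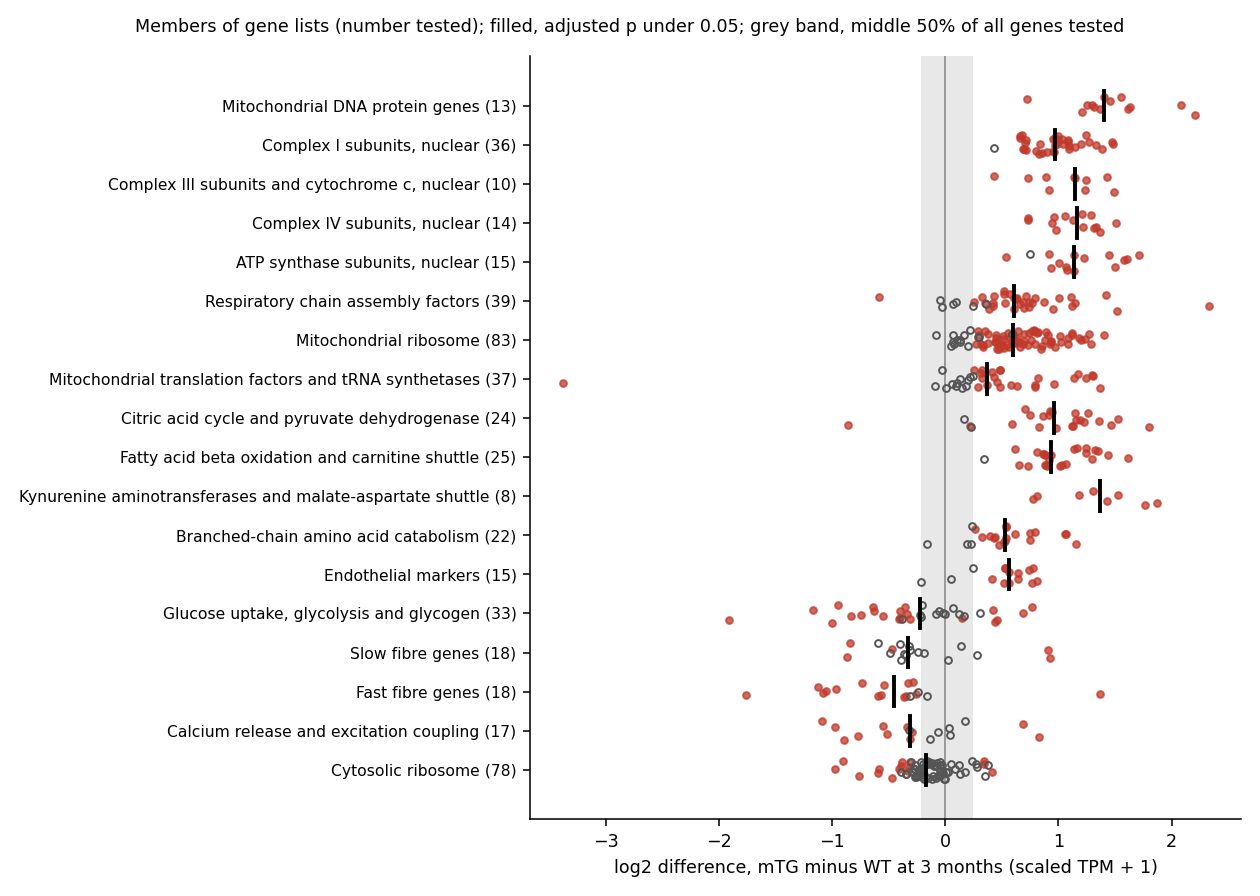
Difference between mTG and WT for each tested member of 18 gene lists, as log2(scaled TPM + 1); filled points have an adjusted p under 0.05, black ticks are list medians and the grey band runs from the lower to the upper quartile of all genes tested. Most members of the mitochondrial and fuel oxidation lists lie right of the band, with list medians of 0.37 to 1.40, and the fast fibre list lies mostly left of it, with a median of -0.45.

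Most genes of fast fibres fell, while few genes of slow fibres passed the test in either direction. Of 18 fast fibre genes 1 rose and 14 fell, with a median of -0.45 (1 higher and 17 lower as deposited). Myl1, an essential light chain of fast myosin, was at 12670 to 15580 scaled TPM in WT (median 13980) and 5963 to 7499 in mTG (median 6757), 2.12-fold lower (difference -1.08, SE 0.12). Myoz3, a Z-disc protein of fast fibres, fell by 1.76, from a median of 49.6 to 14.7 scaled TPM, and Mylk2, the myosin light chain kinase of skeletal muscle, by 1.06. Actn3, the fast fibre actinin, fell by 1.12, and the calcium buffer Pvalb, parvalbumin, by 0.96. Smaller falls were seen for Tnni2 (0.54 on the log2 scale) and for the fast calcium pump Atp2a1 (difference -0.33, adjusted p = 0.0199), whose call was lost without WT_5.

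Of 18 slow fibre genes 2 (11.1%) rose and 3 (16.7%) fell, against 22.3% and 21.4% of all genes. Their median was -0.33 (none higher and 15 lower as deposited). Without MCK_3875, WT_1 or WT_6 the count that fell was 7, 6 or 5. Mb, myoglobin, which stores oxygen, was at 1575 to 2631 scaled TPM in WT (median 2278) and 2859 to 4987 in mTG (median 4001) and rose by 0.91 (0.10 and not called as deposited). The other that rose was Casq2, the calsequestrin of slow fibres and heart, by 0.92 (0.17 and not called as deposited). Myoz2 fell by 0.87, Myl3, the slow essential light chain, by 0.84, and Myl6b by 0.47. Myh7, the slow myosin heavy chain, was at 64.8 to 268 scaled TPM in WT and 67.1 to 198 in mTG and did not pass (difference -0.24, adjusted p = 0.565), nor did Myh2, the myosin of oxidative fast fibres (-0.31, adjusted p = 0.124).

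Within the 4 adult myosin heavy chains the shares shifted from Myh4, of the fastest glycolytic fibres, to Myh1, of the intermediate fast fibres. Myh1 took 3.94% to 7.50% of their summed TPM in WT and 10.2% to 20.9% in mTG, with means of 5.58% ± 1.37 and 15.6% ± 3.39 (SD, n = 6 each; exact permutation test, adjusted p = 0.00464). Myh4 took 84.3% to 92.7% in WT and 71.2% to 86.7% in mTG, with overlap (adjusted p = 0.00812 in the same exact test). The shares of Myh7 (1.45% and 1.27% on average) and Myh2 (4.34% and 3.76%) did not pass, with adjusted p-values of 0.782 and 0.534 in exact permutation tests. As levels, Myh1 rose 2.57-fold and Myh4 fell by 0.29 on the log2 scale.

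Slow isoforms of the troponins and of the calcium pump did not take a larger share that passed the test. Tnni1 was 0.381% of Tnni1 and Tnni2 in WT and 0.617% in mTG (exact permutation test, adjusted p = 0.292), and the adjusted p-values for Tnnt1, Tnnc1 and Atp2a2 were 0.803, 0.803 and 0.601. Casq2 made up 0.660% to 1.07% of both calsequestrins in WT and 1.71% to 4.13% in mTG, without overlap (adjusted p = 0.00464, exact). Casq1, the fast form, fell by 0.73. The library MCK_3875 had the highest mTG share of Tnni1, Tnnt1, Tnnc1, Atp2a2, Casq2, Myh7, Myh2, Myh1 and Ldhb, and WT_3 the highest WT share of 8 of these genes, all but Myh2.

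In complex IV the share of Cox7a1, the isoform of heart and muscle, was 63.5% to 65.2% of Cox7a1 and Cox7a2 in WT and 70.2% to 74.9% in mTG. The groups were apart, and the means differed by 8.59 points (exact permutation test, adjusted p = 0.00464). Cox6a2, also a muscle isoform, went the other way by a small step, from 97.7% ± 0.199 of Cox6a1 and Cox6a2 in WT to 96.9% ± 0.249 in mTG (adjusted p = 0.00464, exact).

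**Figure D3:**
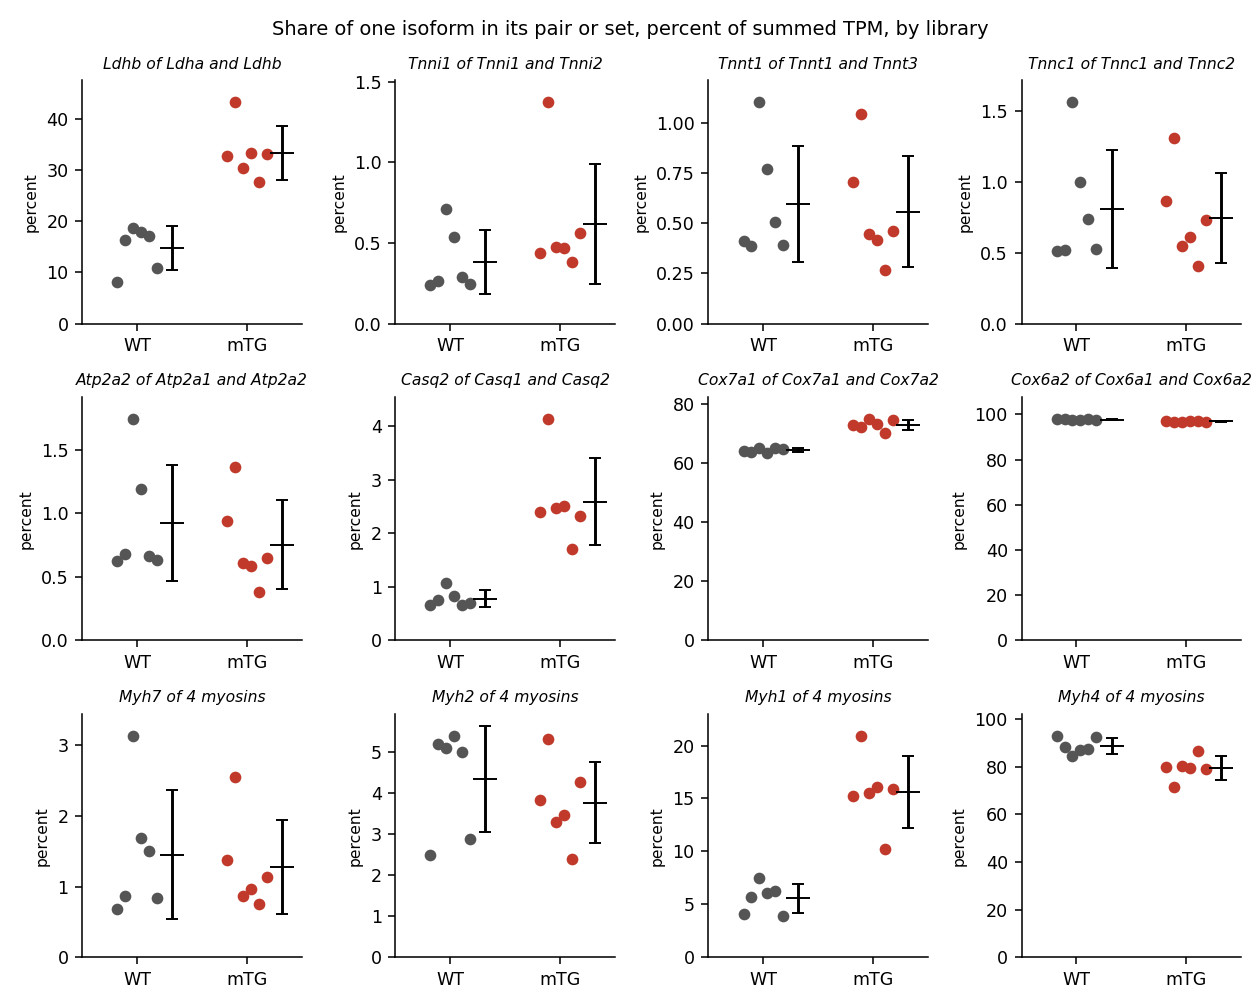
Share of one isoform in the summed TPM of its pair or set, in percent, for each of the 12 libraries, with the group mean and SD (n = 6 each); each vertical axis starts at 0. The groups are apart for Ldhb, Casq2, Cox7a1, Cox6a2 and Myh1 and overlap for the other 7.

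Genes that couple excitation to calcium release fell more often than they rose. Of 17 genes 2 rose and 9 fell, with a median of -0.31 (none higher and 15 lower as deposited). Jph2, a junctophilin that ties the outer membrane to the calcium store, was at 93.9 to 113 scaled TPM in WT (median 100.5) and 45.2 to 49.9 in mTG (median 46.4), 2.15-fold lower. Jph1, the skeletal junctophilin, fell by 0.77. At the neuromuscular junction 1 of 13 tested genes (7.69%) rose and 2 (15.4%) fell, against 22.3% and 21.4% of all genes (none higher and 11 lower as deposited). Musk, the receptor kinase that organises the synapse, was at 2.35 to 4.41 scaled TPM in WT (median 3.64) and 1.03 to 1.69 in mTG (median 1.54), and Chrnb1, a subunit of the acetylcholine receptor, fell by 0.63. PGC-1α is known to act on genes of this synapse, and the other 10 did not pass the test in either direction on scaled TPM.

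Of 15 tested secreted factors 5 (33.3%) rose and 6 (40.0%) fell, against 22.3% and 21.4% of all genes (3 higher and 10 lower as deposited). Fndc5, the precursor of irisin and known as a target of PGC-1α, was at 18.1 to 34.5 scaled TPM in WT (median 29.0) and 89.4 to 104 in mTG (median 97.9). Its groups were far apart (3.46-fold, difference 1.78, SE 0.15, adjusted p = 1.77e-11). Il15, a cytokine of muscle, rose 3.89-fold, from a median of 5.39 to 20.5 scaled TPM, and Apln, apelin, from 0.374 to 2.08. These 3 were higher on both scales. Sparc rose by 0.41 on scaled TPM and was lower, at -0.38, as deposited. Angptl4, an inhibitor of lipoprotein lipase, gave 1.03 (SE 0.41, adjusted p = 0.0421) with wide overlap, and was not called without any 1 of WT_1, WT_2, WT_4, WT_6, MCK_3874, MCK_3875 or MCK_3876.

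Mstn, myostatin, which restrains muscle growth, was at 23.1 to 31.2 scaled TPM in WT (median 27.6) and 5.42 to 7.01 in mTG (median 6.38). It was 4.38-fold lower in mTG (difference -1.97, SE 0.09, adjusted p = 1.3e-17). Its relative Gdf11 fell from a median of 2.00 to 0.723 scaled TPM. Ostn, which encodes the muscle peptide musclin, was at 20.3 to 29.1 scaled TPM in WT (median 26.1) and 4.20 to 5.73 in mTG (median 4.87) and fell by 2.19 on the log2 scale. Igf1 fell from a median of 5.02 to 2.07 scaled TPM and Fstl1 by 0.31. Dcn, decorin, fell by 0.22, a call lost without WT_1 or without WT_3. Fgf21 and Gdf15, hormones of mitochondrial stress, were under 1 scaled TPM in all 12 libraries.

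More signals to blood vessels rose than fell. Of 19 tested genes 10 (52.6%) rose and 3 (15.8%) fell, against 22.3% and 21.4% of all genes (3 higher and 10 lower as deposited). Vegfb was at 38.2 to 58.0 scaled TPM in WT (median 52.0) and 152 to 193 in mTG (median 174), 3.45-fold higher with a difference of 1.78 and higher on both scales. Vegfa, the main angiogenic factor and a known target of PGC-1α with ERRα, was at 74.7 to 108 scaled TPM in WT (median 87.1) and 151 to 193 in mTG (median 178); its 1.99-fold rise was not called as deposited (0.20). Epas1, the hypoxia factor HIF-2α, rose by 1.25 and was higher on both scales, and Pdgfa fell by 0.76.

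Markers of endothelial cells moved with these signals on scaled TPM. Of 15 markers 12 rose and none fell, with a median of 0.56, and their summed level was 210 to 261 scaled TPM in WT and 345 to 411 in mTG. On deposited TPM none was higher and 4 were lower, with a median of -0.14 against -0.58 for all genes. Aqp1 was at 60.5 to 81.1 scaled TPM in WT (median 72.4) and 116 to 146 in mTG (median 126), Pecam1 at 13.4 to 17.3 scaled TPM in WT (median 14.7) and 20.7 to 24.2 in mTG (median 22.3). Tie1 rose by 0.64 and Esam by 0.65, and as deposited these 4 gave 0.01, -0.20, -0.07 and -0.10. Whether endothelial RNA has a part in the vascular list, which shares Flt1, Kdr and Tek with these markers, was not tested.

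Markers of other cells gave the following counts. Over all genes 22.3% rose and 21.4% fell, and as deposited 3.77% were higher and 77.2% lower. Macrophage markers rose in 3 of 11 tested (27.3%) and fell in none (summed 41.5 to 64.1 scaled TPM in WT and 67.9 to 79.95 in mTG). On deposited TPM none of them was higher and 9 were lower. Satellite cell markers fell in 3 of 6 and rose in none (6 lower as deposited). Erythrocyte markers rose in 2 of 5 (none as deposited). Smooth muscle and pericyte markers rose in 3 and fell in 2 of 10 (none higher and 9 lower as deposited). Fibro-adipogenic markers rose in 1 and fell in 4 of 10, or in 2 without WT_1, WT_3, WT_5 or WT_6 (none higher and 10 lower as deposited). Of the tendon markers 1 of 6 fell, Scx, from a median of 3.22 to 1.36 scaled TPM, and of the Schwann cell markers 1 of 5 (6 and 4 lower as deposited). None of the 10 T and B cell markers was expressed enough to be tested. Of white adipocyte markers 1 of 8 fell, Car3, which muscle fibres also express. Of the brown adipocyte markers Ucp1, Elovl3, Dio2 and Zic1 were under 1 scaled TPM in all 12 libraries. The tested 3 rose, and they were Ppargc1a, the gene of the transgene itself, Cidea, and a subunit already counted in complex IV.

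The largest changes outside these pathways are led by genes of little studied function. BC049352 was at 0.682 to 1.51 scaled TPM in WT (median 0.976) and 34.6 to 46.8 in mTG (median 40.2). It had the largest rise of all by the naming rule (37.5-fold, difference 4.33, SE 0.16), ahead of Ppargc1a itself. BC048679 rose by 2.77 and Adig, known from adipocytes and with its promoter stretch above, by 2.72 (median 4.44 to 33.0 scaled TPM). Cds1, which makes the CDP-diacylglycerol used for phospholipids, was at 0.233 to 1.07 scaled TPM in WT (median 0.432) and 7.29 to 9.45 in mTG (median 7.73). Kcng4, a potassium channel subunit, rose 5.52-fold. Paqr4, Iqsec2, Snph, which anchors axonal mitochondria, and Mfsd4a rose by 2.31, 2.28, 2.22 and 2.22. In all 12 of these rises, Sco2 and Ppif included, deposited TPM gave the same call.

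The largest falls held enzymes of polyamine metabolism. Smox, spermine oxidase, was at 227 to 385 scaled TPM in WT (median 358) and 19.8 to 29.0 in mTG (median 22.9). This was 13.8-fold lower and the largest fall by the naming rule (difference -3.72, SE 0.25, adjusted p = 6.11e-14). Amd1, which supplies the aminopropyl donor, was at 565 to 843 scaled TPM in WT (median 692) and 103 to 151 in mTG (median 129.5), 5.42-fold lower. Odc1, the rate-limiting enzyme that makes putrescine, fell from a median of 90.9 to 20.7 scaled TPM. Sms, spermine synthase, which was looked up after these values were seen, had a median of 37.8 scaled TPM in WT and 11.6 in mTG, without overlap. No list of polyamine genes was drawn up, and these 4 are not a tested group.

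Actc1, the cardiac actin that skeletal muscle keeps at a low level, was at 103 to 225 scaled TPM in WT (median 148) and 18.7 to 27.6 in mTG (median 22.6), 7.01-fold lower. Slc38a4, a carrier of amino acids, was 5.58-fold and Car3, carbonic anhydrase 3, 4.93-fold lower. Odf3l2 fell by 2.51 and Htra4 by 2.33 on the log2 scale, both to under 1 scaled TPM in every mTG library. Ighm, the heavy chain of immunoglobulin M and named after its values were seen, was at 30.1 to 52.5 scaled TPM in WT and 8.14 to 13.5 in mTG.

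**Figure D4:**
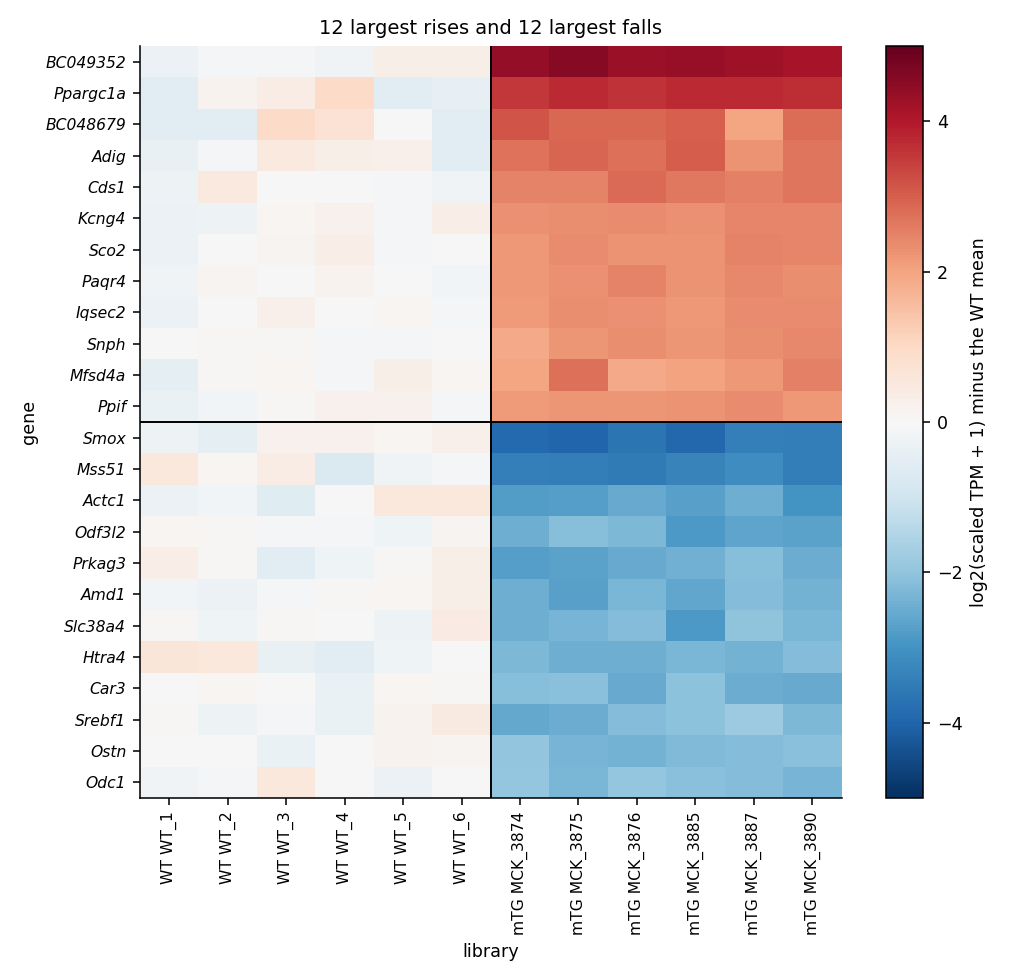
The 12 largest rises and 12 largest falls by the naming rule, as log2(scaled TPM + 1) in each library minus the WT mean, red above and blue below. The rule took only genes whose groups do not overlap, so that separation was fixed by the choice of genes.

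Genes of muscle wasting fell about as often as all genes. Of 21 genes of atrophy and autophagy 2 (9.52%) rose and 4 (19.0%) fell, against 22.3% and 21.4% of all genes (1 higher and 18 lower as deposited). Trim63, the ubiquitin ligase MuRF1, was at 63.7 to 99.9 scaled TPM in WT (median 84.8) and 39.2 to 45.7 in mTG (median 42.2), 1.99-fold lower, and Fbxo32, the ligase atrogin-1, fell by 0.70. Sqstm1, which encodes the autophagy receptor p62, fell by 0.79. Mt1, a metallothionein, rose 3.30-fold and was higher on both scales. Of 14 tested genes of the integrated stress response 2 (14.3%) rose and 2 (14.3%) fell (none higher and 11 lower as deposited).

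Of 18 clock genes 1 (5.56%) rose and 6 (33.3%) fell, against 22.3% and 21.4% of all genes (none higher and 17 lower as deposited). Rora, a nuclear receptor of the clock, fell from a median of 7.28 to 3.60 scaled TPM. Cry2 and Hlf each fell by 0.68. The labels give no hour of sampling. Of 14 heat shock genes 1 (7.14%) rose and 3 (21.4%) fell (none higher and 12 lower as deposited). Without WT_3, WT_4 or MCK_3887 the count that rose was 2. Hspb8 fell by 1.01 and Hsph1 from a median of 37.2 to 16.3 scaled TPM. Of 78 genes of cytosolic ribosomal proteins 3 (3.85%) rose and 13 (16.7%) fell, with a median of -0.17, and all 78 were lower as deposited. The count depended on the scale, since 65 fell after quantile normalization and 42 when nuclear protein-coding genes alone set the scale.

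The transgene effect at 3 months was set beside that at 24 months, where 6 mTG and 6 WT libraries share none with the present 12. At 24 months 2979 genes (24.0%) were higher and 2962 (23.9%) lower in mTG, together 47.9%. Of the 2771 genes that rose at 3 months 2652 (95.7%) had the same sign at 24 months and 2132 (76.9%) were called higher there, which is 71.6% of the 2979. Of the 2657 that fell, 2475 (93.2%) had the same sign and 1871 (70.4%) were called lower, or 63.2% of the 2962. Calls in opposite directions numbered 10 and 16. The list of complex I had medians of 0.97 and 0.87 at the 2 ages, the mitochondrial ribosome 0.59 and 0.55, and the fast fibre genes -0.45 and -0.30.

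The difference of the effect between ages passed the test for 432 genes (3.48%), of which 219 (1.77%) had a higher and 213 (1.72%) a lower value at 24 months. Among them were 73 (2.63%) of those that rose and 158 (5.95%) of those that fell at 3 months. That count was 23 with the rRNA share as a covariate, and the share of nuclear rRNA genes in TPM was 5.34% to 12.6% in WT and 0.384% to 1.33% in mTG at 24 months, so its part could not be told apart from genotype and age. For Ostn the difference was -0.18 at 24 months against -2.19 at 3 months (interaction 2.00, SE 0.20, adjusted p = 1.27e-07). At 24 months the WT libraries reached 71.4 scaled TPM and the mTG libraries 47.3. Myh4 had -0.29 at 3 months and 0.56 at 24 months (adjusted p = 1.46e-05), and Entpd4, an endomembrane nucleotidase, -0.10 and 1.21. Kcnab1, a potassium channel subunit, went the other way, with -1.17 and -2.81 (adjusted p = 4.49e-10).

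**Figure D5:**
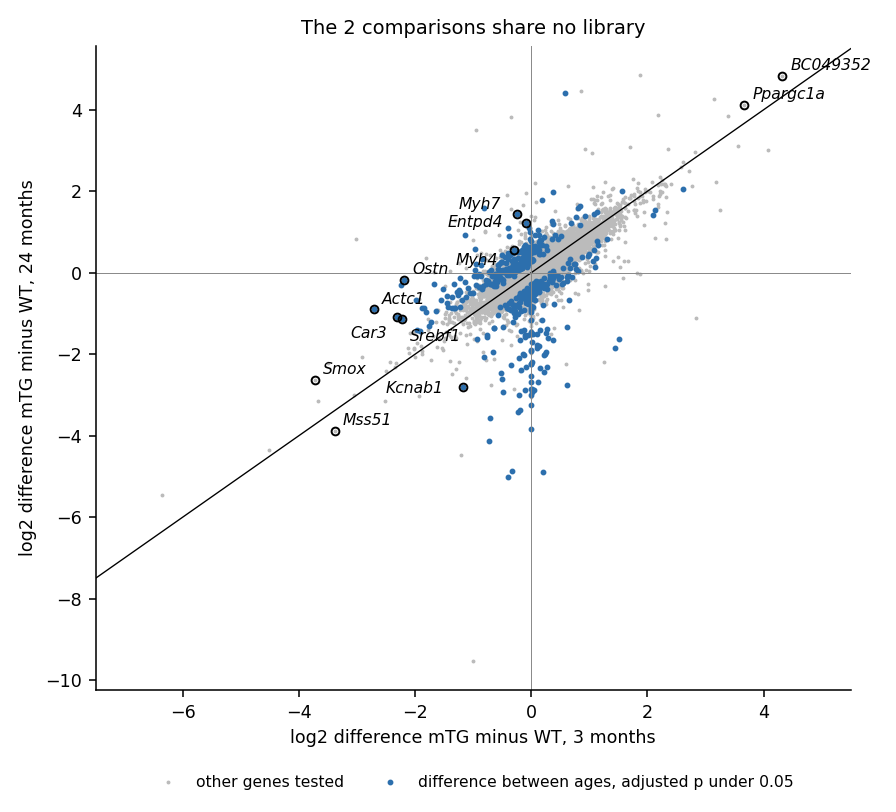
Difference between mTG and WT at 3 months (horizontal) and at 24 months (vertical) for each gene tested, as log2(scaled TPM + 1), with the line of equal values; blue points are the 432 genes whose difference between ages has an adjusted p under 0.05. Most genes lie near the line, while Ostn, Actc1, Car3, Srebf1 and Myh7 lie above it and Kcnab1 below it.

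The knockout mice at 3 months are compared with the same 6 WT libraries, so their values are only set alongside. There 222 genes (1.79%) were higher and 406 (3.27%) lower than in WT, together 5.06%. The knockout minus WT difference was -0.77 for Esrra, -0.88 for Got2, -0.91 for Fndc5 and -0.39 for Sdhb, and 0.03 for Mstn and -0.53 for Smox. Complex I subunits had a median of -0.16 there, with 2 lower and none higher, and the citric acid cycle -0.31, with 12 lower and none higher.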

How the data were processed

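The deposited table holds TPM, which the authors made with Salmon 1.1.0 after trimming with cutadapt 1.16 against GRCm38, per the submitters' processing notes, which also list edgeR. The 54416 gene IDs were named from GENCODE M21 (54163 matched); where IDs shared a symbol, list members were read from the ID with the highest mean TPM. The sequencing depth is unknown, since TPM keep no counts. All 35 libraries were fitted with limma 3.58.1 (R 4.3.3) on log2(scaled TPM + 1), with an intensity trend, one mean per group and scaling from 11669 genes, keeping genes at 1 TPM or more in at least 5 libraries; adding 1 understates changes of low genes. Single values were tested with an exact 2-sided permutation test. The fit was tested on simulated data. Alternatives were other scalings, filters, pseudocount, weights, covariate and libraries left out.

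The 50 gene lists and members were chosen with earlier results of these data known. Mtfp1 was taken off the secreted list after its values were seen, since its product is mitochondrial. Genes named were Ppargc1a, the 12 largest rises and falls with at least 5 scaled TPM and no overlap (no Gm, Rik, pseudogene, antisense or mitochondrial DNA genes), up to 4 called members per list by adjusted p, all members of 5 lists, isoform pairs and up to 5 genes per direction of the age difference. Which of these are printed was decided after their values were seen, and Ndufa2, Cox16, Mgme1, Pcx, Cpt1a, Plin2, Plin3, Fasn, Vegfa, Sms and Ighm were added then. A few genes that the rule names are not reported here.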

Additional observations from a re-analysis of the deposited data

Results flagged for a closer look

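In 360 groups of 6 libraries checked (the named genes and the single values, in WT and mTG), 19 had 1 library far from the other 5, and chance alone gives about 1 in 20. The library MCK_3875 accounted for 8 of the 19. It had 43.3% Ldhb among lactate dehydrogenases, against 27.7% to 33.4% in the other mTG libraries. Its shares were 1.37% for Tnni1 (0.384% to 0.56% in the others), 4.13% for Casq2 (1.71% to 2.51%) and 2.55% for Myh7 (0.747% to 1.38%). It was highest for Pnpla2, at 287 scaled TPM (233 to 251). It was lowest for Phkb, at 31.2 (36.7 to 39.4), for Me1, at 22.9 (26.2 to 28.1), and for Pvalb, at 2310.0 (2900.0 to 3250.0).

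Among the other mTG libraries, MCK_3876 was highest for Atp5c1, at 1500.0 scaled TPM against 1270.0 to 1350.0, and for Mterf2, at 36.8 against 25.2 to 28.1. MCK_3890 was highest for Ppargc1b, at 1.57 against 0.761 to 0.978, and MCK_3887 lowest for BC048679, at 31.7 against 57.3 to 73.9. Among WT libraries, WT_1 was lowest for Uqcrc1, at 276 against 359 to 416, and for Chchd3, at 225 against 263 to 277. WT_6 was lowest for Pdk4, at 66.9 against 190.0 to 302. WT_4 was lowest for Car3, at 645 against 812 to 865. WT_3 was highest for Odc1, at 138 against 77.6 to 95.1, and lowest for Entpd4, at 48.2 against 61.1 to 69.0. WT_2 was highest for Cds1, at 1.07 against 0.233 to 0.493.

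For 22 of the named genes the transgene effect differed between ages by limma's interaction test (adjusted p under 0.05 with Benjamini-Hochberg adjustment over all genes). Some genes were named for their age difference in this same test, so the count of 22 was in part fixed by that choice. It can therefore not be set against the 3.48% of all genes that passed. All values are log2, as the effect at 24 months minus that at 3 months, with both effects after it. In the lists, 4 of 18 fast fibre and 3 of 18 slow fibre genes had a higher effect at 24 months by that test, against 1.77% of all genes. Among these 22 genes it was higher for Myh7 by 1.67 (-0.239 and 1.43), Myh4 by 0.853 (-0.29 and 0.563), Myh2 by 0.795 (-0.313 and 0.483), Actc1 by 1.81 (-2.71 and -0.899), Mylk2 by 0.559 (-1.06 and -0.498) and Myoz3 by 0.443 (-1.76 and -1.31). The calcium pump gene Atp2a1 gave 0.619 (-0.326 and 0.293). Of the genes with large falls at 3 months, the value was 2.01 for Ostn (-2.19 and -0.18), 1.23 for Car3 (-2.3 and -1.08), 1.08 for Srebf1 (-2.23 and -1.14) and 0.474 for Phkb (-1.91 and -1.44). It was 1.04 for Plin3 (-0.973 and 0.0635), 0.615 for Mgme1 (-0.289 and 0.326), 0.517 for Sqstm1 (-0.787 and -0.27) and 1.31 for Entpd4 (-0.0961 and 1.21).

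The value was negative for 7 genes. It was -1.63 for Kcnab1 (-1.17 and -2.81), -0.797 for Gdf11 (-0.77 and -1.57) and -0.643 for Ppargc1b (-0.035 and -0.678). Among genes that rose at 3 months it was -0.554 for Cds1 (2.6 and 2.05), -0.471 for Apln (1.15 and 0.678), -0.464 for Slc25a20 (1.3 and 0.835) and -0.461 for Sparc (0.412 and -0.049). The part of the nuclear rRNA share in these differences, which was highest in WT at 24 months, could not be told apart from genotype and age.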

How the results depend on the processing

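On TPM as deposited 467 genes were higher and 9573 lower in mTG. With the 37 genes of mitochondrial DNA removed and columns brought to one total the counts were 1055 and 6981. The near-identical nuclear copies stayed in under that setting. With a mean of at least 5 TPM the counts were 1693 and 1639 (fewer genes tested), and with a fold of at least 1.5 they were 498 and 197. Leaving out each library in turn gave 2568 to 2675 and 2458 to 2543. The count of genes whose effect differed with age was 2268, 1534 and 219 under the first 3 of these settings, 910 with array weights, 23 with the rRNA share as covariate and 321 to 393 with each library left out. Of the 165 named genes, 135 kept direction and call on deposited TPM, the setting that changed most calls apart from the minimum fold, where 114 did. Directions turned on deposited TPM for Nrf1 (-0.60), Gabpa (-0.51), Ndufa2 (-0.38), Sdhc (-0.35), Cpt1a (-0.235), Ldhb (-0.23), Pdk2 (-0.15), Pdk4 (-0.00407), Sparc (-0.38), Tie1 (-0.0689), Esam (-0.10) and Pecam1 (-0.20). With the genes of mitochondrial DNA, but not their nuclear copies, removed they turned for Nrf1 (-0.35), Gabpa (-0.21), Ndufa2 (-0.00907) and Sparc (-0.0209). Nrf1 also turned after quantile normalization (-0.0020), on nuclear protein-coding genes (-0.0317) and with the rRNA covariate (-0.0012). Ppargc1b turned with array weights (0.00346) and with that covariate (0.0412). Without MCK_3874 and MCK_3885, chosen after seeing the data, Esrrg (0.0268) and Nrf1 (-0.0240) turned. With each library left out, values were -0.12 to 0.0279 for Ppargc1b, -0.13 to 0.03495 for Esrrg, -0.0309 to 0.0670 for Nrf1 and -0.44 to 0.00402 for Myh7. In percentage points, they were -0.135 to 0.0644 for the share of Tnnt1, -0.177 to 0.0863 for Tnnc1 and -0.434 to 0.157 for Myh7. The rRNA share did not pass as a sum of scaled TPM (-0.239). The cause of these changes was not tested. No paired analysis was possible because the mTG columns carry no replicate number shared with the WT columns.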

Other observations

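Nnt, which encodes the mitochondrial transhydrogenase and is deleted in part in the C57BL/6J strain, was listed under a pair of overlapping gene IDs on chromosome 13. For ENSMUSG00000025453, MCK_3874 and MCK_3885 had 12.3 and 11.7 scaled TPM, and the other 10 libraries 3.25 to 5.34. For ENSMUSG00000116207 the values were 18.6 and 17.7, against 3.31 to 8.50 in the others. Summed over both IDs these libraries had 30.9 and 29.4, against 6.86 to 13.4. The labels give no strain, so whether these mice differ in genetic background was not tested. Without both libraries 2499 genes were higher and 2313 lower in mTG.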
